A study of Rattus norvegicus with 31 samples.

Results

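The liver and the white adipose tissue (WAT) of fasted rats on the low fat diet were compared to see which transcripts set the 2 tissues apart. The data were the 5 liver arrays and the 5 WAT arrays of the L-group, 10 of the 31 arrays of the series, chosen by the tissue and diet in their titles. All 10 came from the same 5 male Wistar rats, here named L1 to L5, which were 3 weeks old at the start and lived on chow for 1 week. They then received a diet with 65% of its energy as carbohydrate and 15% as fat ad libitum, for 1 week and for the 9 weeks that followed, and food was withdrawn 17 h before dissection. Rats of the H-group, used below as a second set of 4 livers and 4 WAT samples, were treated in the same way but received 35% carbohydrate and 45% fat in amounts that matched the energy intake of the L-group. All groups share the fast and the strain. The labels do not name the depot from which WAT was taken, and both tissues were sampled whole, so that fewer cells of a type and less RNA per cell cannot be told apart.

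Hepatocytes, the main cells of the liver, make most plasma proteins, bile acids and urea, oxidize foreign compounds, and during a fast release glucose and ketone bodies. White adipocytes hold triacylglycerol in a single lipid droplet coated by perilipin, release fatty acids and glycerol when catecholamines activate lipases, and secrete hormones such as leptin and adiponectin. Both tissues make fatty acids, oxidize fuel and keep circadian time, in part with different members of the same enzyme and transporter families.

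The deposited log2 values of the tissues had been made by different methods, the robust multi-array average (RMA) for the liver and qFARMS for WAT, and array medians lay between 4.68 and 4.70 in the liver and at 7.17 in WAT. Each array was therefore turned into percentile ranks over its 31042 probe sets, so that 100 is the top of the array, and differences are given as liver minus WAT in percentile points. A probe set was called different where the adjusted p of limma, a linear model that pools the spread over probe sets, was under 0.05 and the mean ranks lay at least 25 points apart. By this rule 1617 probe sets (5.21%) were higher in the liver and 2150 (6.93%) in WAT. Of 14217 genes, each taken on its highest ranked probe set, 765 (5.38%) were higher in the liver and 1139 (8.01%) in WAT. The p alone separated little, since 85.6% of the probe sets had an adjusted p under 0.05, and only 5 probe sets past 25 points missed it. Mean ranks of the tissues correlated over probe sets with r = 0.79, and 59.5% of the probe sets differed by less than 10 points.

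Several features of the files bear on these counts. Method, tissue and RNA preservation (RNAlater for the liver, liquid nitrogen for WAT) cannot be told apart, and p measures at most the spread between rats. qFARMS returned 1 value over all 9 WAT arrays of the series for 25762 probe sets (83.0%), so the WAT rank of such a gene, given below as constant or as 1 value, places it but shows no difference between rats. The p and SE of such a gene rest on the spread between livers and on the spread that limma pools over probe sets. Where the livers also agreed closely, the SE stayed near 0.19, a floor of the pooling and not a measured precision. Of the 182 genes named 92 were constant in WAT, among them many for which the difference alone is given. Constant probe sets made up 1501 of the 1617 calls for the liver and 1038 of the 2150 for WAT, so that of the 5280 that varied 116 (2.2%) were higher in the liver and 1112 (21.1%) in WAT. The spiked bacterial control bioB, the most dilute of the hybridization controls, ranked 21.3 to 35.0 points higher in WAT on its 6 probe sets, while bioD and cre moved by less than 0.5 points, and 1 of the 6 probe sets of the poly-A control thr ranked 30.2 points higher in WAT. Among genes called higher in WAT, 623 differed by more than the 35.0 points of that control and 516 by less. No control moved more than 16.5 points toward the liver. The split of the calls also depended on the scale, since with log2 values centred on the array median, and a minimum of 1 on the log2 scale, 7752 probe sets were higher in the liver and 5860 in WAT.

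The markers of both main cell types bore out the tissue labels. Of the 9 hepatocyte markers measured, 8 were higher in the liver, with a median difference of 73.1 points over the list against 0.02 over all genes. Of 10 adipocyte markers, 8 were higher in WAT, with a median of -52.04. *Hnf4a*, a nuclear receptor that defines hepatocytes, had ranks of 98.9, 98.7, 99.04, 98.9 and 98.98 in livers L1 to L5 and a constant rank of 25.8 in WAT, a difference of 73.1 ± 0.19 points (SE, adjusted p = 1.38e-18). *Adipoq*, which encodes adiponectin, had ranks of 25.3, 22.7, 25.8, 24.3 and 28.8 in the livers and 99.9 in every WAT sample, a difference of -74.5 ± 0.95 (SE, adjusted p = 6.37e-13). *Serpina1* and *Ttr*, which encode a protease inhibitor and a carrier of thyroid hormone, differed by 63.96 and 56.99 points. The groups did not overlap for these 4 genes, which was also true of 25463 of the 31042 probe sets (82.0%).

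**Figure D1:**
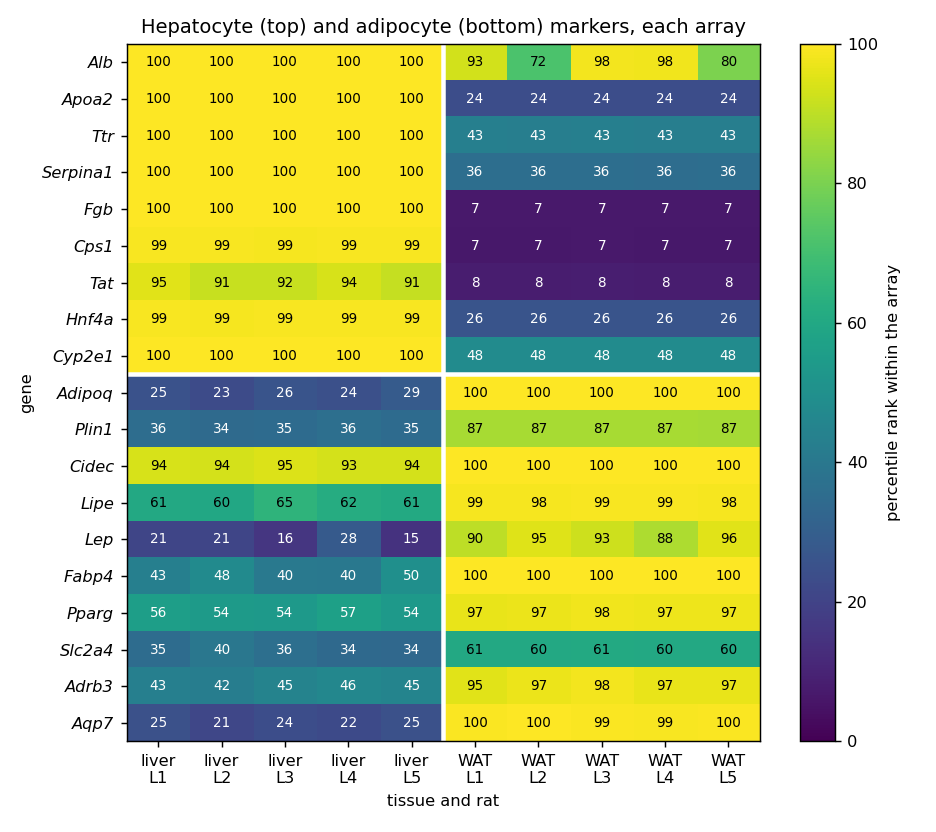
Percentile rank of each hepatocyte marker (top 9 rows) and adipocyte marker (bottom 10 rows) on each of the 10 L-group arrays, with liver on the left and WAT on the right. The hepatocyte genes fill the liver side with ranks above 90, and *Alb* alone of them is also high in WAT, at 71.5 to 98.3.

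Of these 19 markers 3 were not called. *Alb*, which encodes albumin, held the top rank on all 5 liver arrays, yet it also ranked 93.1, 71.5, 98.3, 98.03 and 80.1 in the WAT of rats L1 to L5, so the difference was only 11.8 ± 4.9 points (SE, adjusted p = 0.046). Its other probe set gave the same order of rats in WAT, at 79.8, 58.0, 93.4, 91.9 and 62.8, with rats L3 and L4 high and rat L2 low on both. *Cidec*, a protein of the lipid droplet surface, was near the top in WAT but already at 93.9 ± 0.54 (SD, n = 5) in the liver, and differed by -5.93 points. *Slc2a4*, the glucose transporter that insulin moves to the cell surface, missed the size by little at -24.6 points on its highest ranked probe set, which was constant in WAT. Its other probe set, which varied in WAT, gave -64.01 points. *Plin1*, the perilipin of the adipocyte droplet, was higher in WAT on both of its probe sets, by 51.6 points on the one shown and 83.4 on the other.

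Proteins that the liver secretes into plasma were mostly higher there in transcript rank. Of 19 plasma carriers and protease inhibitors measured, 16 were higher in the liver, of 16 clotting and fibrinolysis genes 15, and of 19 complement genes 10, with none higher in WAT. *Klkb1*, plasma prekallikrein, had ranks of 99.04, 99.1, 99.3, 99.3 and 99.1 in the livers and a constant 3.26 in WAT, a difference of 95.9 ± 0.19 points (SE, adjusted p = 3.82e-19). The fibrinogen chains *Fga* and *Fgb* were at 99.9 on every liver array and at constant WAT ranks of 5.76 and 6.78. *Fgg*, the third chain, was as high in the liver but ranked 19.03, 34.8, 33.1, 51.2 and 22.1 in WAT, below the livers in all 5 rats. Among the hormone carriers, *Serpina7*, which binds thyroxine, differed by 92.7 points and *Serpina6*, which binds corticosteroids, by 91.2. *Serpina3c*, a protease inhibitor with close relatives that its probes may share, differed by 92.1.

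Not every secreted protein was a liver transcript in rank. *Rbp4*, the retinol carrier that adipocytes secrete too, ranked 99.7 to 99.9 in every sample of both tissues and differed by 0.0960 ± 0.19 points (SE, adjusted p = 0.64). *Vtn*, vitronectin, ranked 99.8 ± 0.0076 (SD, n = 5) in the liver and 83.1 ± 1.6 (SD, n = 5) in WAT. Among complement genes the terminal component *C8a*, the component *C5* and the regulator *Cfi* were higher in the liver by 95.3, 91.1 and 90.7 points, each against a constant WAT rank. *C3*, the central component, differed by 66.03 ± 5.6 (SE, adjusted p = 1.31e-06), with ranks of 55.5, 24.03, 34.3, 21.4 and 34.3 in WAT and 99.9 or above in every liver. *C4bpa*, a complement inhibitor, spread from 12.7 in rat L5 to 86.2 in rat L3 in WAT, still below the 99.6 ± 0.018 (SD, n = 5) of the liver. At the other end, *Cfd*, complement factor D, also named adipsin, had ranks of 99.9 or above in the WAT of all 5 rats and 77.4, 75.2, 78.2, 77.7 and 77.9 in their livers, which was -22.6 points and short of a call, as was *C1qc*, made by macrophages, at -10.5.

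Apolipoproteins and lipoprotein enzymes split by function. Of 19 genes, 13 were higher in the liver and 3 in WAT, with a median of 70.1 points. *Mttp*, which loads triacylglycerol onto apolipoprotein B, and *Lipc*, hepatic lipase, had liver means of 97.9 ± 0.13 (SD, n = 5) and 99.04 ± 0.073 (SD, n = 5) and differed by 94.1 and 95.3 points. *Apoa2*, an apolipoprotein of high density lipoprotein, differed by 76.3. The 3 genes higher in WAT serve the uptake of circulating triacylglycerol. They were *Gpihbp1*, the capillary anchor of lipoprotein lipase (-37.2 points), *Lpl*, the lipase itself (-29.5), and *Vldlr*, a receptor for triacylglycerol-rich particles (-28.8), and the last 2 differed by less than the 35.0 points of the bioB probe set that shifted furthest. *Lpl* ranked 70.5, 70.6, 68.9, 69.1 and 73.4 in the livers and was constant at 99.97 in WAT, whereas *Apoe* was high in both, at 99.9 ± 0.0098 (SD, n = 5) in the liver and 98.04 ± 0.79 (SD, n = 5) in WAT.

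To show what a motif of liver genes looks like, the 150 bases before the transcription start of *Alb*, *Fga* and *Plg* were taken from RefSeq (assembly GRCr8), on the strand of the gene. These 3 plasma protein genes were chosen because they hold the motif, which few promoters do, and *Alb* was not called. *Plg* encodes plasminogen, the precursor of the clot dissolving protease. All 3 hold the letters GTTAATNAT or their reverse complement, a match to the motif of hepatocyte nuclear factor 1 (HNF1), shown in capitals. The regions are chr14:17906980-17907129 on the minus strand for *Alb*, chr2:170672019-170672168 on the plus strand for *Fga* and chr1:50915407-50915556 on the minus strand for *Plg*, and the matches begin 82, 55 and 70 bases before the start.
Alb: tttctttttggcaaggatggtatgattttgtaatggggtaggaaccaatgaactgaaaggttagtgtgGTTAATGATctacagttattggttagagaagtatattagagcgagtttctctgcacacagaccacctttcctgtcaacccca
Fga: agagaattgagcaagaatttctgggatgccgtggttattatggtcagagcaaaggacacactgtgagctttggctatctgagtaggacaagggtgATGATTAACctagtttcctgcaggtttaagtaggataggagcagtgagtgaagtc
Plg: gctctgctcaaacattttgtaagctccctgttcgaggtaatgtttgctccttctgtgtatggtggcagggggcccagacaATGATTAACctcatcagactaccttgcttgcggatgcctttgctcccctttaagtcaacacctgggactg

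The pathways by which the liver disposes of cholesterol and nitrogen were also higher there. Of 19 genes of bile acid synthesis and transport 16 were higher in the liver, of 8 urea cycle genes 7, and of 24 genes of amino acid catabolism 19, with none higher in WAT. *Slc10a1*, which takes bile acids up from portal blood, ranked 99.6, 99.6, 99.6, 99.7 and 99.7 in the livers against a constant 4.32 in WAT, a difference of 95.3 ± 0.19 points (SE, adjusted p = 3.82e-19). The organic anion carrier *Slco1a1* and *Baat*, which joins bile acids to amino acids, differed by 93.3 and 91.6. *Cyp7a1*, which limits the rate at which cholesterol becomes bile acid, was the member that varied most between rats, with liver ranks of 69.6, 45.8, 57.5, 85.7 and 84.9 in rats L1 to L5. All 5 lay above the constant WAT rank of 13.2, and the difference was 55.5 ± 7.2 (SE, adjusted p = 3.84e-05).

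In the urea cycle *Cps1* and *Otc*, the mitochondrial steps, had liver means of 98.98 ± 0.16 (SD, n = 5) and 98.9 ± 0.14 (SD, n = 5) and differed by 92.4 and 89.8 points. The cytosolic steps were less one-sided. *Ass1*, which joins citrulline to aspartate, ranked 26.3, 32.2, 38.8, 21.2 and 19.98 in WAT and 96.4 to 97.7 in the livers, and *Arg1*, which releases urea, ranked 80.1, 77.5, 64.5, 84.8 and 65.3 in WAT and 99.7 or above in the livers. The difference of *Arg1*, 25.3 ± 3.8 (SE, adjusted p = 1.12e-04), was just over the size needed and fell to 22.8 without rat L3 and 23.0 without rat L5. Among enzymes of amino acid breakdown *Tdo2* for tryptophan, *Cth* for sulfur amino acids and *Hgd* for tyrosine differed by 95.01, 92.1 and 91.4 points. *Tat*, the first enzyme of tyrosine breakdown, ranked 95.4, 91.5, 91.6, 93.9 and 91.3 in the livers against a constant 8.17. *Hpd*, the next step, was at 99.6 ± 0.058 (SD, n = 5) in the liver but ranged from 9.09 to 51.5 in WAT. *Sds*, serine dehydratase, which turns serine into pyruvate for glucose synthesis, was the most variable liver member of this list that was called, with ranks of 81.5, 61.7, 75.9, 89.3 and 67.4 against a constant 43.4.

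Several genes of glucose release were high in both tissues. Of 12 genes of gluconeogenesis and glycogen 5 were higher in the liver, and the median difference was 10.6. *Slc2a2*, the glucose transporter of hepatocytes, differed by 96.4 points, with liver ranks of 98.8, 98.4, 98.8, 98.99 and 99.04. *Fbp1*, a step of glucose synthesis that glycolysis does not share, differed by 81.1, and *Pklr*, liver pyruvate kinase, by 50.2. *Pck1*, which supplies glucose synthesis in the liver and the glycerol of triacylglycerol in fat, ranked 99.8 ± 0.0051 (SD, n = 5) in the liver and 99.9 on all WAT arrays. Of 4 genes of ketone body metabolism measured, *Bdh1*, which makes the ketone body β-hydroxybutyrate, was higher in the liver (46.4 points). *Oxct1*, the enzyme that lets tissues burn ketone bodies and that hepatocytes lack, ranked 42.7, 43.8, 43.9, 44.8 and 44.3 in the livers and 99.1, 99.1, 99.3, 98.9 and 98.6 in WAT. Its groups lay 55.1 points apart (SE 0.39, adjusted p = 5.08e-15).

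Of 17 cytochromes P450 of families 1 to 4, 14 were higher in the liver and none in WAT, with a median of 78.2 points. *Cyp3a2* ranked 99.9 in every liver and was constant at 1.84 in WAT, a difference of 98.04 ± 0.19 points (SE, adjusted p = 3.82e-19). *Cyp2a2* and *Cyp4f1* differed by 95 and 94.9, and *Cyp2e1*, which oxidizes ethanol and ketone bodies, by 51.7. Since P450 genes have close relatives, probes of *Cyp3a2* may also bind other members of its family. Of 14 conjugation enzymes 4 were higher in the liver, and *Sult1e1*, *Sult1b1* and *Ugt2b1*, which add sulfate or glucuronic acid, led them with 84.7, 79.3 and 78.5 points.

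The region of *Cyp3a2*, likewise shown for the letters it holds, at chr12:14343858-14344007 on the minus strand, held a match to the motif of hepatocyte nuclear factor 4 (CAAAGTCCA), 97 bases before the start. It also held a match to the letters AGGNCAAAG, which begins 150 bases before the start. These letters are only the first part of a direct repeat of the kind bound by several nuclear receptors, so a match does not show a whole repeat. Both matches are shown in capitals.
Cyp3a2: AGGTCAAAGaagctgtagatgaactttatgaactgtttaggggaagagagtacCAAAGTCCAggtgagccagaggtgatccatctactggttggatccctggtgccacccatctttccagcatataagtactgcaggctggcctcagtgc

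Transcription factors known to drive hepatocyte genes were mostly higher in the liver too. Of 20 measured, 15 were higher in the liver and none in WAT, with a median of 49.6 points. *Onecut1*, a factor of liver development, ranked 97.8, 99.04, 95.9, 98.02 and 95.02 in the livers against a constant 6.08 in WAT, a difference of 91.1 ± 0.70 points (SE, adjusted p = 1.12e-14). *Onecut2* and *Foxa2* differed by 89.9 and 75.9. *Cebpa*, which acts in hepatocytes and adipocytes alike, ranked 96.2 ± 0.60 (SD, n = 5) in the liver and 97.9 ± 0.36 (SD, n = 5) in WAT.

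Genes of the adipocyte lipid droplet were in part higher in WAT, and many were also well up in the liver. Of 20 genes of the droplet and of lipolysis 7 were higher in WAT and 1 in the liver, and the median was -9.74 points. *Aqp7*, the channel through which adipocytes release glycerol, ranked 24.6, 21.4, 23.6, 22.3 and 24.8 in the livers and 99.6, 99.6, 99.4, 99.1 and 99.6 in WAT, a difference of -76.1 ± 0.64 points (SE, adjusted p = 2.45e-14). *Pnpla3*, a relative of the triacylglycerol lipase, ranked 20.8, 23.5, 24.8, 22.4 and 27.7 in the livers and 83.5, 89.05, 88.7, 88 and 85.8 in WAT, and the groups lay far apart. The lipases themselves differed less. *Pnpla2*, which starts the breakdown of triacylglycerol, was at 72.8 ± 1.04 (SD, n = 5) in the liver and 99.6 in WAT, and *Lipe*, hormone-sensitive lipase, at 61.7 ± 2.1 (SD, n = 5) and 98.7 ± 0.25 (SD, n = 5). Averaged over all its probe sets, *Lipe* differed by -12.6 and was not called. The 1 gene higher in the liver was *Cideb*, a droplet protein of lipoprotein-secreting cells, with ranks of 91.9, 91.3, 91.8, 92.01 and 91.7 and a constant 26.6 in WAT.

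Of 16 hormones of fat measured, 5 were higher in WAT and 1 in the liver. *Lep*, which encodes leptin, ranked 20.9, 20.7, 15.6, 28.5 and 14.5 in the livers and 90.2, 95.2, 92.5, 87.8 and 95.7 in WAT of rats L1 to L5, a difference of -72.2 ± 2.7 points (SE, adjusted p = 1.89e-09). Every WAT value lay above every liver value, and in 82.0% of all probe sets the tissues did not overlap either. *Fgf21*, a hormone that the fasted liver releases, was the exception with ranks of 76.7, 89.8, 86.4, 82.9 and 81.3 in the livers and a constant 43.7.

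For the droplet and the hormones, the matching regions of *Plin1* (chr1:143086149-143086298, minus strand) and *Lep* (chr4:58626388-58626537, plus strand) are shown, again chosen for the letters they hold, which were about as frequent in the promoters of genes higher in WAT as in all. Capitals mark the reverse complement of AGGNCAAAG, 112 bases before the start of *Plin1*, and the letters TTGCGCAA, a match to the motif of the C/EBP factors, 69 bases before that of *Lep*.
Plin1: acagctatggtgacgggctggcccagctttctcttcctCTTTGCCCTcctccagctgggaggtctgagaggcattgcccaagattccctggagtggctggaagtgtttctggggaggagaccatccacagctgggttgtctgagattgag
Lep: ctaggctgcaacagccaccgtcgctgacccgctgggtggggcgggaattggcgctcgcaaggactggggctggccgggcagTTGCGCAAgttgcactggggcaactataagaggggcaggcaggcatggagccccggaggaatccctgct

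Regulators of fat cell formation and of its hormonal control were higher in WAT in smaller numbers. Of 20 adipogenic factors 6 were higher in WAT and none in the liver. *Ebf1* ranked 9.03, 8.82, 8.82, 4.45 and 10.9 in the livers and was constant at 96.8 in WAT (-88.4 points), while *Ebf2*, its relative, ranked 0.648, 1.0, 0.633, 1.53 and 2.22 in the livers and 51, 44.4, 43.9, 51.3 and 53.9 in WAT. *Zfp423*, a factor of preadipocytes, differed by -60.6, but by only -23.0 when its probe sets were averaged. *Pparg*, the receptor that drives adipocyte formation, had a mean rank of 55.1 ± 1.4 (SD, n = 5) in the liver and 97.3 ± 0.42 (SD, n = 5) in WAT.

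Of 19 genes of adrenergic and insulin signalling 7 were higher in WAT and 3 in the liver. *Prkar2b*, a regulatory subunit of protein kinase A, ranked 24.5, 20.8, 23.9, 21.98 and 22.04 in the livers and 99.6, 99.5, 99.6, 99.5 and 99.6 in WAT, and *Npr3*, the clearance receptor of natriuretic peptides, 20.1, 19.9, 13.1, 10.6 and 17.4 and 87.3, 87.5, 83.1, 80.96 and 89.8. Both were higher in WAT, by 76.9 and 69.5 points. The 3 higher in the liver were *Gcgr*, the glucagon receptor (55.7 points), *Lepr*, the leptin receptor (38.5), and *Irs1*, an insulin receptor substrate (30.9). *Lepr* fell short at 19.8 when its probe sets were averaged.

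The lists for fuel use that both tissues share held calls in shares near or below those over all genes, 5.38% for the liver and 8.01% for WAT. None of 21 oxidative phosphorylation genes and none of 11 ribosomal protein genes was called, at medians of -0.348 and -0.624 points, and the ribosomal genes stayed within -0.874 and -0.300. By the limma p alone, at any size, 12 of the 21 and 10 of the 11 had an adjusted p under 0.05, against 85.6% of all probe sets. Of 20 genes of mitochondrial β-oxidation only *Cpt1c*, the brain form of carnitine palmitoyltransferase 1, was called (5% of the list), at -32.6 points between mean ranks of 27.6 and 60.1. Of 17 cholesterol synthesis genes only *Tm7sf2*, a sterol reductase, was called (29.1 points, 5.88% of the list). Ranks compress differences at the top of an array, so these 4 lists, whose mean ranks lay between 69.4 and 99.5 on the 10 arrays, leave less room for a call.

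Fatty acid and triacylglycerol synthesis held few calls as well. Of 22 genes 1 was called in each direction (4.55%). *Fads2*, a desaturase of polyunsaturated fatty acids, was higher in the liver (47.3 points), and *Elovl6*, an elongase, was higher in WAT, with 43.2, 42.9, 44.3, 46.8 and 52.5 in the livers and 79.9, 83.6, 80.5, 82.1 and 87.6 in WAT. *Fasn* and *Acaca*, which build fatty acids from acetyl-CoA, had ranks of 99.1, 99.5, 99.1, 99.5 and 99.4 and 97.9, 98.2, 97.2, 99.04 and 96.9 in WAT, and means of 75.6 ± 0.71 (SD, n = 5) and 75.3 ± 0.81 (SD, n = 5) in the liver. Both missed a call on their highest ranked probe set, at -23.8 and -22.6 points. Their groups did not overlap, as in 82.0% of all probe sets. Averaged over all its probe sets, *Fasn* differed by -42.1 points and was called. With the 10 arrays quantile normalized together, *Fasn* was lower in the liver by 4.58 and *Acaca* by 3.45 on the log2 scale, *Cfd* by 5.77 and *Cidec* by 3.37, and all 4 then passed the size of 1.

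Fatty acid uptake and binding went both ways, with 8 of 21 genes higher in the liver and 3 in WAT. *Fabp7*, the brain form of the fatty acid binding proteins, had liver ranks of 99.7, 99.5, 99.6, 99.6 and 99.5 against a constant 1.90 and *Fabp1*, the liver form, 99.9 against 6.48. *Fabp4*, the adipocyte form, ranked 43.2, 47.8, 40.4, 40.2 and 49.8 in the livers and was constant at 99.97 in WAT, a difference of -55.7 ± 1.8 points (SE, adjusted p = 7.03e-10). *Slc27a1* and *Cd36*, which bring fatty acids into cells, were higher in WAT by 27.97 and 25.3 points, and *Cd36* fell under the size without rat L1 or rat L4, at -24.4 and -24.2. Both differences were also smaller than the largest shift of bioB, as were those of *Cpt1c* and of *Pnpla2*, the lipase (-26.8 points).

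**Figure D2:**
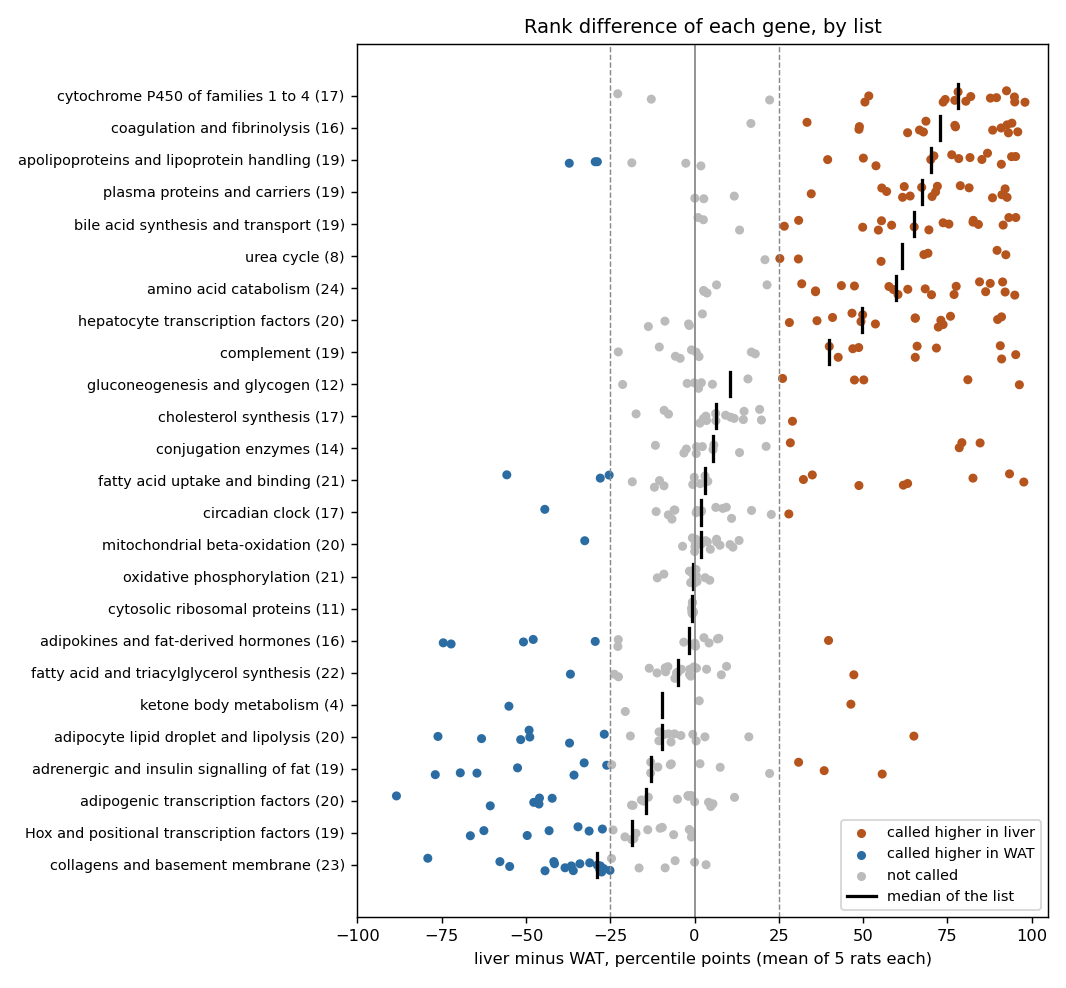
Rank difference, liver minus WAT in percentile points (means of 5 rats each), of each measured gene of the 25 pathway lists, with the number of genes in brackets, colour for the call, dashed lines at the size needed and a bar at the median of each list. Medians run from 78.2 points for the P450 genes to -28.8 for collagens, and the oxidative phosphorylation and ribosomal genes all lie between -11.0 and 4.52.

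In some pairs of related genes the members took opposite sides. Of 27 pairs listed, in which one form is known from the liver and the other from fat or other tissues, 22 had both members measured. In 7 the liver form was called higher in the liver and the other form higher in WAT. In 8 neither was called, and in no pair was the liver form called higher in WAT. The 7 were the fatty acid binding proteins *Fabp1* and *Fabp4*, the glycerol channels *Aqp9* and *Aqp7*, the lipases *Lipc* and *Lpl*, the hormone receptors *Gcgr* and *Adrb3*, which are of different families, the transporters *Slc27a2* and *Slc27a1*, the nuclear receptors *Ppara* and *Pparg*, and the glycogen synthases *Gys2* and *Gys1*. *Aqp9* ranked 98.1, 98, 98.3, 98.3 and 98.2 in the livers and 33.4 in WAT, against the opposite order in *Aqp7* above. *Adrb3*, the β3-adrenergic receptor, ranked 43.1, 42.5, 44.6, 46.4 and 45.3 in the livers and 95.4, 97.1, 98.4, 96.8 and 96.7 in WAT, and *Ppara* ranked 46.7, 33.7, 49.5, 47.9 and 48.2 in the livers and was constant at 8.86 in WAT. The weakest of the 7 was *Gys2*, at 26.1 ± 3.6 points (SE, adjusted p = 6.38e-05), with WAT ranks of 51.04, 69.6, 67.8, 59.1 and 54.2, and it fell under 25 points without rat L1 (24.5) or rat L5 (24.3). *Gys1*, at -33.9 points, was under the largest shift of bioB.

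**Figure D3:**
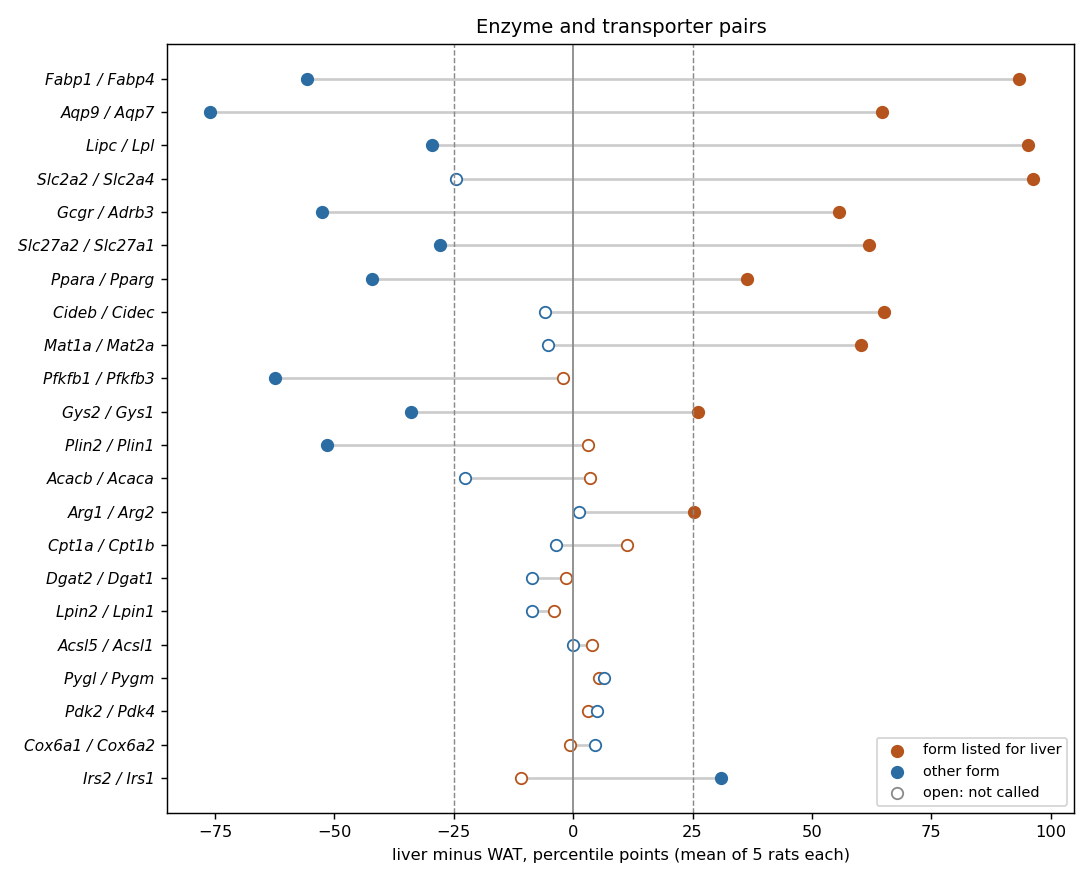
Rank difference, liver minus WAT in percentile points (means of 5 rats each), of both members of the 22 pairs measured, with orange for the form listed for the liver, blue for the other form, open symbols for no call and dashed lines at the size needed. The top pair joins *Fabp1* at 93.4 to *Fabp4* at -55.7, and in the bottom pair *Irs1* lies on the liver side at 30.9.

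In other pairs only one form was called. *Slc2a2*, *Cideb*, *Mat1a*, a methionine adenosyltransferase (60.4 points), and *Arg1* were called for the liver while their partners *Slc2a4*, *Cidec*, *Mat2a* (-5.28) and *Arg2* (1.30) were not called. *Plin1* and *Pfkfb3*, an activator of glycolysis, were called for WAT while *Plin2* (3.08) and *Pfkfb1* (-2.18) were not. *Pfkfb3* ranked 36.9, 31.4, 34, 38.7 and 36.1 in the livers and 99.01, 97.3, 98.1, 96.9 and 97.96 in WAT. *Hk2*, the hexokinase of insulin-sensitive tissues, was higher in WAT by 38.8 points. *Irs1* went against the order of the list, with liver ranks of 39.1, 44.05, 46.2, 45.2 and 52.4 above a constant 14.5, while *Irs2*, listed as the liver form, had means of 77.1 ± 3.9 (SD, n = 5) and 88.02 ± 1.7 (SD, n = 5). *Gls2*, the liver glutaminase, was higher in the liver by 35.9 points and *Aldoa*, an aldolase, differed by -9.54.

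In the 8 uncalled pairs both forms differed by less than the size needed. *Acsl1*, an acyl-CoA synthetase, had means of 99.8 ± 0.015 (SD, n = 5) in the liver and 99.9 ± 0.019 (SD, n = 5) in WAT, and *Acsl5* differed by 3.94 points. *Cpt1a* and *Cpt1b*, the entry of fatty acids into mitochondria, differed by 11.4 and -3.55, and *Dgat2* and *Dgat1*, the last step of triacylglycerol synthesis, by -1.40 and -8.71. The lipins *Lpin2* and *Lpin1* gave -3.91 and -8.57, the glycogen phosphorylases *Pygl* and *Pygm* 5.31 and 6.45, and the cytochrome c oxidase subunits *Cox6a1* and *Cox6a2* -0.707 and 4.52. *Acacb*, the mitochondrial partner of *Acaca*, differed by 3.57. *Pdk2* and *Pdk4*, which restrain glucose oxidation, differed by 3.10 and 5.07, and *Pdk4*, known to rise in fasting, ranked 95.5, 97.8, 97.5, 95.6 and 96.4 in the livers and 97.4, 97.4, 93.5, 83.01 and 86.1 in WAT.

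Genes of the connective tissue were mostly higher in WAT. Of 23 collagens and basement membrane genes 17 were higher in WAT and none in the liver, with a median of -28.8 points. Of these 17, 9 differed by more than the largest shift of bioB and 8, like the median, by less. *Lum*, a proteoglycan of collagen fibrils, ranked 7.30, 16.8, 32.5, 9.70 and 32.1 in the livers and 99.1, 98.9, 97.9, 99.2 and 98.95 in WAT, a difference of -79.1 ± 4.98 points (SE, adjusted p = 1.26e-07). *Col6a2* and *Col15a1* differed by -57.7 and -54.8, whereas *Fn1*, fibronectin, which hepatocytes secrete into plasma, was at 99.5 ± 0.068 (SD, n = 5) and 99.4 ± 0.16 (SD, n = 5). Of 19 Hox and other positional factors 7 were higher in WAT, all 19 differences were below 0, 4 of the 7 exceeded that shift, and *Hoxd8*, *Hoxc8* and *Hoxa5* led with -66.5, -62.5 and -49.6. *Hoxa5* ranked 36.8, 32.9, 31.5, 29.1 and 32.9 in the livers and 80.4, 83.1, 82.9, 79.2 and 85.7 in WAT.

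Other cell types were read from their markers. Fibroblast markers were higher in WAT in 6 of 9 genes, endothelial markers in 5 of 9, smooth muscle markers in 6 of 7, mesothelial markers in 4 of 5 and nerve markers in 3 of 4, and none of these lists had a gene higher in the liver. The calls larger than the largest shift of bioB were 4 of 6, 1 of 5, 3 of 6, 4 of 4 and 2 of 3. The mean rank of the fibroblast markers ran from 55.9 to 60.1 over the livers and from 96.9 to 98.2 over the WAT samples, and that of the endothelial markers from 63.7 to 65.2 and from 89.6 to 91.4. *Cldn5*, a junction protein of endothelium, ranked 18.7, 15.1, 21.8, 17.4 and 14.9 in the livers and 93.97, 96.5, 92.9, 95.1 and 95.4 in WAT, and *Tagln* of smooth muscle and *S100b*, which adipocytes express as well as Schwann cells, differed by -63.8 and -82.4 points. Markers of the liver's own stroma went both ways. Of 5 sinusoidal endothelial markers 2 were higher in the liver, *Stab2* (52.4 points) and *Fcgr2b* (28.9), and none in WAT, with a median of -1.92. Of 7 stellate cell markers 2 were higher in the liver, *Reln* (59.4) and *Lrat* (26.1), and 4 in WAT, *Des* (-31.5), *Rgs5* (-31.4), *Pdgfrb* (-27.8) and *Ngfr* (-27.4), with a median of -27.4. These 4 lay under the largest shift of bioB, and *Lrat* fell to 24.5 without rat L5. Of 3 Kupffer cell markers *Clec4f* and *Cd5l* were higher in the liver (53.8 and 80.95), and *Folr2*, made by other resident macrophages too, was higher in WAT (-32.95). Of 6 bile duct markers *Epcam* was higher in the liver (53.7) and the keratins *Krt19* (-44.7), which is on the mesothelial list as well, and *Krt7* (-43.04) in WAT, with a median of -4.42. None of the 9 general macrophage markers and none of the 10 T and NK cell markers was called. At any size 8 of each had an adjusted p under 0.05 in limma, near the 85.6% of all probe sets. All 10 T and NK cell markers were constant in WAT. Brown adipocyte markers were called in neither tissue, and *Ucp1*, which defines brown fat, ranked 13.8 in the liver and 17.9 in WAT. Of the 7 measured, 5 were constant in WAT. None of 6 epididymis and testis markers was called, and their mean rank was 14.7 to 14.8 in WAT, where all 6 were constant.

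Mesothelium, the lining that covers visceral fat, was read from 5 genes whose mean rank ran from 78.5 to 95.8 over the WAT samples and from 36.7 to 37.9 over the livers. Of these *Lrrn4* was not called at -11.96 points, but averaged over all its probe sets it differed by -35.4 and was called. Of the other 4, 3 were looked at by rat after their values had been seen. *Upk1b* ranked 7.94, 12.5, 10.9, 11.6 and 6.76 in the livers and 82.8, 91.1, 87.4, 96.5 and 95.9 in WAT of rats L1 to L5, *Msln* 47.1, 45.3, 43.8, 45.1 and 44.2 and 88.8, 93.1, 92.3, 97.4 and 96.5, and *Wt1* 23.4, 21.8, 21.2, 19.98 and 23.4 and 80.04, 87.4, 80.4, 92.4 and 93.7. All 3 were higher in WAT and had their lowest WAT values in rat L1 and their highest in rats L4 and L5. The part of the covering layer in the WAT differences was not tested.

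The largest differences of the whole array were then listed in each direction. The 10 genes furthest toward the liver lay between 95.9 and 99.1 points and were all constant in WAT. Their liver means lay between 97.6 and 99.9 and their WAT ranks between 0.0886 and 3.58, where signal is near background, so their order among themselves is not reliable. They held 3 metabolic enzymes of foreign or endogenous compounds (*Ugt2b15*, *Cyp3a2* and *Sult1c3*), 2 transporters (*Slc2a2* and the amino acid transporter *Slc38a4*), the plasma proteins *Apon* (apolipoprotein N) and *Mug1* (murinoglobulin), and *Fabp7*, *Amy1* (amylase) and *Dmgdh* (dimethylglycine dehydrogenase). *Ugt2b15* ranked 99.2, 99.3, 99.05, 99.3 and 99.3 in the livers and 0.0886 in WAT. *Ugt2b15*, *Cyp3a2*, *Sult1c3*, *Mug1* and *Amy1* belong to families of close relatives, so their probes may read several genes.

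The 10 furthest toward WAT lay between 83.8 and 92.4 points, and 9 of them varied between WAT arrays. *Efemp1*, a fibulin of the matrix, ranked 4.80, 9.04, 3.80, 6.55 and 6.78 in the livers and 98.5, 98.5, 97.5, 99.2 and 98.98 in WAT, a difference of -92.4 ± 0.89 points (SE, adjusted p = 6.96e-14). *Postn* (periostin), *Mfap5* (a protein of microfibrils) and *Scara5* (a ferritin receptor) followed, at -90.7, -89.9 and -90.2. *Arxes1* (-90.6), known from adipocyte formation, *Ebf1* and *Abcd2* (-85.2), a peroxisomal transporter of fatty acids, are genes of fat cells. The rest were *Ankef1* (-89.7), the cation exchanger *Slc24a3* (-84.02) and *Slc22a3*, which carries organic cations. *Slc22a3* alone of the 10 spread in WAT, with 75.4, 89.4, 96.7, 96.6 and 91.6 in rats L1 to L5.

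**Figure D4:**
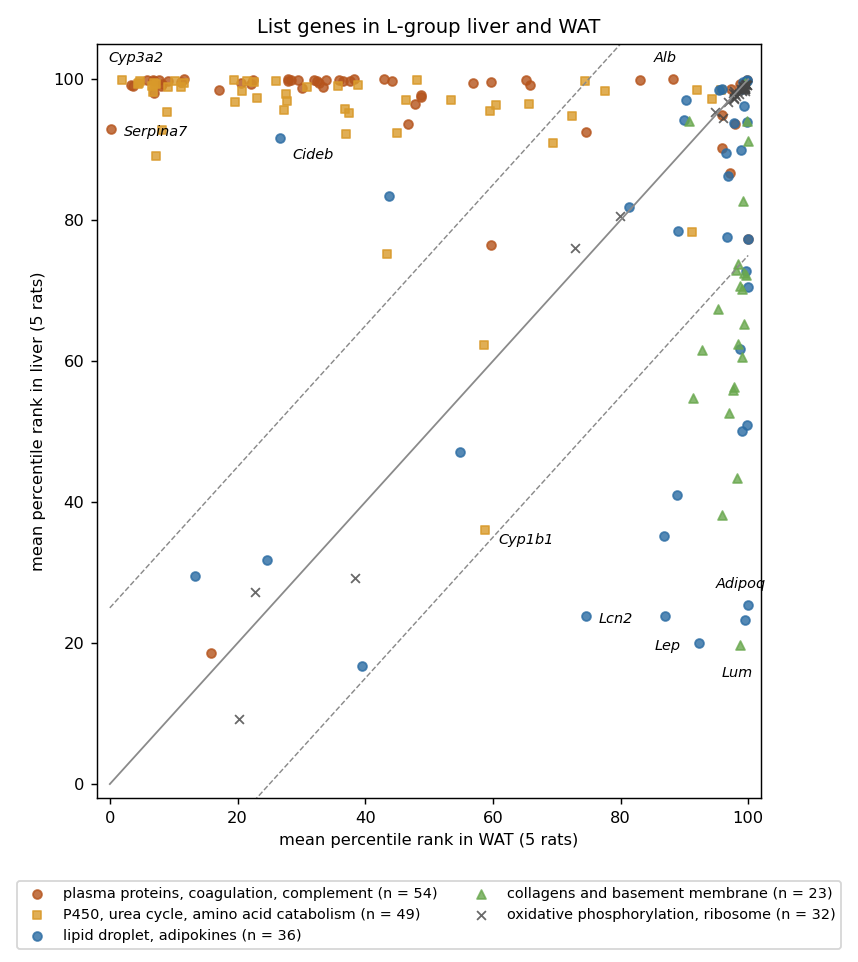
Mean percentile rank in the liver against mean percentile rank in WAT (5 rats each) for genes of 11 lists, with a line of equal rank and dashed lines 25 points from it. Liver lists sit along the top edge at all WAT ranks, collagens and droplet genes along the right edge, and oxidative phosphorylation and ribosomal genes near the line.

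The spread between the 5 rats was read over the 5280 probe sets that varied in WAT, since the constant ones set it near 0 there. Over these, arrays of 1 tissue correlated in rank with r from 0.987 to 0.990 in the liver and from 0.913 to 0.941 in WAT, and the median SD over rats was 1.35 points in the liver and 1.38 in WAT. The probe sets were kept because they vary in WAT, so these values do not rank the tissues by spread. Over all probe sets r ran from 0.992 to 0.994 in the liver and from 0.994 to 0.996 in WAT, where most probe sets were constant. The SD reached 10 points in 113 probe sets of the liver and 289 of WAT.

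The genes with the largest SD in WAT divided the rats. *Cyp1b1*, a P450 found outside the liver, ranked 95.4, 8.73, 95.5, 89.9 and 4.54 in the WAT of rats L1 to L5, high in 3 rats and near the bottom in rats L2 and L5, while the livers of the same rats ranked 34.6, 40.01, 33.3, 33.5 and 38.7. *Gstt3*, a glutathione transferase, was low in the WAT of the same 2 rats at 97.9, 11.5, 93.2, 88.7 and 20.8, and its liver ranks, 96.3, 86.4, 90.9, 93.9 and 82.2, were lowest in these rats too. The tissue differences of both, -22.8 ± 20 and 27.5 ± 18 (SE), had adjusted p of 0.30 and 0.17. *LOC103691468* was low in the WAT of rats L3 and L5 only (84.9, 72.1, 0.562, 62.4 and 0.408), and its livers had the same 2 rats lowest (45.5, 38.9, 23.05, 33.6 and 20.97). *Acsm5*, a medium-chain acyl-CoA synthetase, was called for the liver at 34.9 ± 14 (SE, adjusted p = 0.037) although rat L3 ranked 88.5 in both tissues, and without rat L1, L2 or L4 the difference stayed past the size, at 31.5, 27.7 and 31.3, but not the adjusted p. *Brcc3-ps7*, a pseudogene, was high in the WAT of rat L5 alone (14, 8.70, 7.27, 6.26 and 84.2). *Mx2*, an interferon-induced gene picked after its values had been seen, had probe sets that disagreed. The higher ranked one had 71.2, 81.8, 76.6, 81.2 and 75.5 in the livers and 60.9, 78.8, 53.9, 61.4 and 51.3 in WAT, while the other ranked 61.6, 16.8, 11.6, 68.2 and 8.70 in the livers and 94.3 and 72.7 in the WAT of rats L1 and L4 but under 0.03 in the others, so that rats L1 and L4 were high in both tissues.

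In the liver the spread was widest for *Akr1b7*, an aldo-keto reductase, at 11.8, 10.3, 8.78, 13.2 and 59.3 and for *Cib2*, which binds calcium, at 66.8, 26.2, 25.5, 28.2 and 23.8, each with 1 rat far above the other 4. *Clca2* (83.3, 78.7, 53.97, 87.7 and 49.2) and *Elavl2*, an RNA-binding protein (4.52, 39.04, 12.96, 40.8 and 40.5), were called for the liver in spite of their spread. The call of *Elavl2*, at 25.1 points, was lost when its probe sets were averaged (8.57) and without rat L2, L4 or L5 (22.2, 21.8 and 21.8).

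Of 17 clock genes measured 1 (5.88%) was higher in the liver, *Hlf* (27.98 points), a clock-controlled transcription factor, and 1 (5.88%) in WAT, *Bhlhe41* (-44.4), a repressor of the clock, near the 5.38% and 8.01% of all genes. The next 4 were picked after their values had been seen. *Dbp*, another clock output, ranked 71.7, 71.3, 89.7, 91.7 and 90.3 in the livers and 51.9, 43.9, 64.2, 84.7 and 85.6 in WAT, with rats L1 and L2 lowest in both tissues. *Bmal1* and *Npas2*, activators of the clock, had the reverse order in the liver, 66.1, 64.5, 43.3, 43.9 and 44.7 and 75.7, 75.8, 51.2, 44.9 and 60.7, with rats L1 and L2 highest, and *Per3*, a repressor, ranked 66.9, 67.9, 81.4, 83.4 and 83.1 there with rats L1 and L2 lowest. WAT held little of this in *Bmal1*, at 63.2, 66.7, 65.8, 62.8 and 60.98. For none of these 4 did the tissues differ by the size needed.

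**Figure D5:**
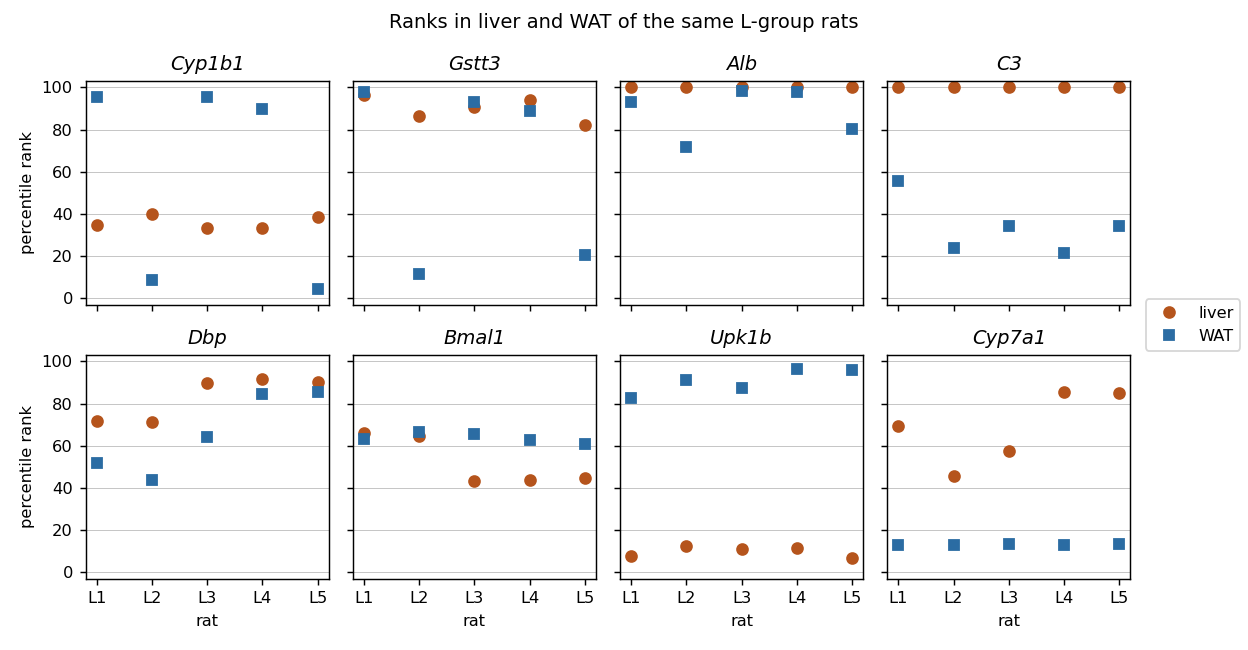
Percentile rank of 8 genes in the liver (circles) and WAT (squares) of rats L1 to L5, one panel per gene. *Cyp1b1* and *Gstt3* fall to 20.8 or below in the WAT of rats L2 and L5, *Dbp* is lowest in rats L1 and L2 in both tissues, and the liver ranks of *Cyp7a1* spread from 45.8 to 85.7.

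The same comparison in the 4 H-group rats used other animals with the same methods. It called 1631 probe sets (5.25%) higher in the liver and 2142 (6.90%) in WAT. Of the L-group calls 1508 of 1617 and 2014 of 2150 were called there too, and none in the opposite direction. Because the constant WAT probe sets hold the same value in both diets, that overlap is not independent on the WAT side. *Hnf4a* differed by 73.2 points in the H-group, *Adipoq* by -76.01, *Lep* by -74.5 and *Efemp1* by -87.3. The interaction of tissue and diet had an adjusted p under 0.05 in limma for 38 probe sets (0.122%), none of which reached 25 points, while 3226 had an unadjusted p under 0.05. One of the genes named here was among the 38. *Fabp2*, the intestinal fatty acid binding protein, was higher in the liver by 48.8 points in the L-group and 62.2 in the H-group (interaction 13.5, adjusted p = 0.023). Its probe set was constant in WAT, at mean ranks of 10.9 in both diets, so a difference between the diets could not appear there. In the liver, L-group rats ranked 59.6 ± 3.3 (SD, n = 5) and H-group rats 73.1 ± 3.1 (SD, n = 4).

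Start regions were then compared between the groups of genes. Of the 14217 genes, 11733 had a RefSeq promoter, and the 250 bases before the start were searched on both strands, among 631 genes higher in the liver and 855 higher in WAT. The HNF1-type letters GTTAATNAT stood in 3.33% of the promoters of genes higher in the liver, in 0.117% of those higher in WAT and in 0.469% of all. For the HNF4-type letters CAAAGTCCA the shares were 1.74%, 0.117% and 0.332%. For AGGNCAAAG, the first part of a direct repeat, which can overlap the former, they were 4.60%, 1.52% and 1.62%. TATAAA was found in 13.3%, 9.36% and 8.06%, and TTGCGCAA in 0.475%, 0.234% and 0.230%. These last orders did not hold among genes at least 50 points apart, where TATAAA in the WAT group fell below the share of all genes (5.33%) and TTGCGCAA, found once in each group, stood in 0.360% of the liver and 0.592% of the WAT promoters. Wilson 95% intervals, which cover counting error only, ran from 2.19 to 5.03% for the HNF1 letters in the liver group and from 0.360 to 0.610% over all genes. Median GC content was 54.8% in the liver group, 60.8% in the WAT group and 59.2% over all genes, and its part in these shares was not tested. A match describes the letters of a region and does not show that a factor binds there.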

How the data were processed

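RNA of each liver and WAT sample was measured on an Affymetrix whole-genome rat array with 3′ probe sets. The authors deposited log2 values, made with RMA for 13 liver arrays and with qFARMS, which can hold a probe set at 1 value, for 9 WAT arrays. They normalized each tissue separately and compared diets within a tissue only, so the test between tissues used here is not theirs. Arrays give no read depth, and the number of arrays limits the precision. M-group livers were not used, and BAT was not analysed here.

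Of 31099 probe sets 57 controls were left out, and ranks were taken within each array over the other 31042. Symbols came from the platform annotation, with 1 symbol for 20826 probe sets, several for 436 and none for 9780. Only probe sets with 1 symbol were named, and a gene was represented by the one with the highest mean rank over the 10 arrays. Of 601 list genes 80 had no such probe set and were not analysed here. Ranks were fitted with limma 3.58.1 in R 4.3.3 with Benjamini-Hochberg adjustment over all probe sets, two-sided. Lists were counted and not tested. Python 3.11.15 with pandas 2.3.3, numpy 2.4.6 and matplotlib 3.10.9 was used for the rest.

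The members and lists were chosen with earlier results of these data known. Genes named were the 10 with the largest called difference in each direction, the 2 or 3 largest of each pathway list and direction, every measured member of the pairs, every hepatocyte and adipocyte marker, leading markers of other cell types and the 5 with the largest SD in each tissue, with some left out for length. The other called markers of liver stroma and bile duct were added after their values had been seen.

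The numbers of the rats pair the tissues, since both came from the same animals. Deviations from the tissue means, over the 5280 probe sets that vary in WAT, correlated between the tissues of 1 rat with r from 0.252 to 0.339, and between different rats with r from -0.172 to 0.00467. The fit was tested on simulated data of 31042 probe sets, of which 200 were changed. All 64 changes over 30 points were called, 0 of 77 under 20 points and 0 unchanged probe sets. These counts describe the simulated data only. How well the fit finds changes between the deposited liver and WAT arrays was not tested. What the difference between RMA and qFARMS, or a shift like that of bioB, does to the calls was not tested. The alternatives were rat as a replicate block, each rat left out, normal scores, log2 values centred or quantile normalized together, a trended and robust fit, 3 filters on probe sets, other thresholds and the mean over the probe sets of a gene.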

Additional observations from a re-analysis of the deposited data

Results flagged for a closer look

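Among 271 groups of 5 ranks of named genes, 17 held 1 rat far from the other 4 by Dixon's criterion, and chance alone gives about 1 in 20. Some of these genes, such as *Akr1b7*, *Cib2* and *Brcc3-ps7*, had been named for their large SD over the same rats. The 17 groups are therefore not a test against that share. In 5 of them the whole range reached 10 points. *Akr1b7* ranked 59.3 in the liver of rat L5 against 8.78 to 13.2 in the others. *Cib2* ranked 66.8 in the liver of rat L1 against 23.8 to 28.2. *Brcc3-ps7* ranked 84.2 in the WAT of rat L5 against 6.26 to 14.0. *Ppara* ranked 33.7 in the liver of rat L2 against 46.7 to 49.5, and *Ugt2b1* 85.4 in the liver of rat L3 against 95.2 to 98.3.

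The other 12 spanned less than 10 points. In the liver of rat L2 the ranks were 75.2 for *Cfd*, 84.8 for *Fads2*, 81.1 for *Hlf*, 99.6 for *Amy1* and 68.1 for *Epcam*. The liver of rat L3 had 99.9 for *Fgg* and 12.9 for *Slc24a3*, and that of rat L5 95.1 for *Cebpa* and 12.4 for *Postn*. In WAT, rat L1 had 98.99 for *Cd36* and 88.2 for *Pygl*, and rat L3 97.9 for *Lum*. *Fabp2* was the 1 named gene whose tissue difference differed between the diets, by 13.5 points more in the H-group (adjusted p = 0.023), and its probe set was constant in WAT.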

How the results depend on the processing

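With rat as a replicate block, 1619 probe sets were higher in the liver and 2151 in WAT (1634 and 2141 in the H-group), list genes gave 148 and 58, and all 182 named genes tested kept direction and call. Leaving out each rat gave 1603 to 1628 and 2114 to 2166 probe sets, 145 to 147 and 56 to 58 list genes, and 1616 to 1637 and 2107 to 2145 in the H-group. The counts moved with scale and threshold. Log2 values centred on the array median gave 7752 and 5860, quantile normalized values 2894 and 3551, a minimum of 10 points 6224 and 6303, and one of 50 points 514 and 424. A fit on the 5280 probe sets that vary in WAT gave 115 and 1112, so this filter, which kept 116 of the 1617 calls for the liver and 1112 of the 2150 for WAT, turned the split toward WAT. Of list genes 148 were higher in the liver and 58 in WAT, which became 12 for the liver with varying probe sets and 106 for WAT with quantile normalized values, and the 7 opposed pairs became 11. In promoters of genes at least 50 points apart, HNF1-type letters stood in 5.40%, AGGNCAAAG in 6.83% and TATAAA in 18.7% of the liver group. In the WAT group HNF1-type letters stood in 0%, HNF4-type in 0% and TATAAA in 5.33%. C/EBP-type letters stood in 0.360% of the liver group and 0.592% of the WAT group, the opposite order to 25 points. Of 169 promoters, 0 matches allow a share of up to 2.22% (Wilson). No called result reversed under any alternative, and the cause of the other moves was not tested. With quantile normalized values 19 named genes gained a call and *Elavl2* and *Ngfr* lost it. With the mean over probe sets *Slc2a4*, *Fasn* and *Lrrn4* gained one, and *Lipe*, *Zfp423*, *Lepr*, *Pdgfrb* and *Elavl2* lost it. Signal near background limits the low ranks, which hold no reliable order.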
